A study of Mus musculus with 18 samples.

Results

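Interscapular brown fat of mice whose mothers ate a fish oil diet was compared between its fetal and its adult state, gene by gene, by RNA sequencing. The comparison sets 3 adult libraries against 3 fetal libraries, 6 of the 18 in the series, taken by their sample labels. It was chosen with earlier results of these data known. All animals were of the C57BL/6 strain, and the labels name no genetic change. The fetal fish oil libraries came from fetuses carried by dams on fish oil. The adult fish oil libraries came from offspring of dams that ate fish oil while pregnant and nursing. These offspring then ate a high fat diet for 8 weeks after weaning and were sampled at 15 weeks of age. The weaned fish oil libraries (3 libraries, 3 weeks of age) serve only to place a gene between its fetal and adult levels. Fetal and adult libraries from dams on a control diet (3 each, the adults likewise on a high fat diet) serve only to test whether the change differed with the maternal diet. Birth, weaning, age and the high fat diet all separate the adult from the fetal group, and their parts in a change cannot be told apart. Xist, an RNA of female cells, was also far higher in fetal libraries 1 and 3 than in any adult library. A part of sex in a change cannot be told apart from these either. The labels give no fetal age and no sex, and do not say whether a library held 1 animal or a pool. The p-values therefore measure the spread between these libraries only.

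Brown fat burns fuel to make heat. Its mitochondria carry uncoupling protein 1, which lets protons pass the inner membrane without making ATP, and noradrenaline acting on beta-adrenergic receptors switches the process on. In rodents the depot between the shoulder blades forms before birth from precursors that share an origin with skeletal muscle, and it then takes up, makes and burns fat through life. On a high fat diet brown fat cells tend to fill with lipid.

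Forward counts came to 10146103 to 16263663 per fetal, 7889595 to 9420612 per adult and 14755725 to 15938609 per weaned fish oil library, and the mitochondrial ribosomal RNA gene mt-Rnr2 took 45.12 to 49.95% of them in the fetal and adult libraries. A count of 3, taken as the lowest number of reads that can be told from none, equals 0.145 to 0.229 CPM (counts scaled to the library size after TMM adjustment) in fetal and 0.336 to 0.433 CPM in adult libraries. Some libraries stood apart within their group. Xist, the RNA that silences an X chromosome in female cells, was at 159, 6.25 and 139 CPM in fetal libraries 1 to 3 and at most 1.01 CPM in the adult libraries, while the Y-linked gene Ddx3y was at 73.1 to 95.8 CPM in every fetal and 71.8 to 75.8 CPM in every adult library. Fetal library 2 was thus nearer to the adult libraries in Xist than to the other fetal ones. Both genes are given as checks on the libraries, and Ddx3y was chosen after its values were seen. Skeletal muscle RNA was lower in adult library 3 than in adult libraries 1 and 2, and genes typical of liver were far higher in adult library 2 than in the other adult libraries. Weaned library 1 differed from weaned libraries 2 and 3 in lipid synthesis genes. Acly, which makes the acetyl units for fat and was chosen here after its values were seen, was at 68.8, 1987 and 2577 CPM in weaned libraries 1 to 3. The biological coefficient of variation, the spread between libraries beyond counting noise, was 9.2% among fetal, 17.4% among adult and 27.5% among weaned fish oil libraries.

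Of 14366 genes tested, 3686 (25.7%) were higher and 3074 (21.4%) lower in adult than in fetal brown fat, 47.1% in either direction (edgeR quasi-likelihood test, Benjamini-Hochberg adjusted p under 0.05). The libraries of the groups did not overlap for 8601 genes (59.9%). A change of more than 2-fold was shown for 914 higher (6.36%) and 541 lower genes (3.77%). Among called genes, 403 had a log2 change of at least 3 and 249 of at most -3. With so many genes changed, a count within a gene group means little alone. Each list count below is to be read against these shares of 25.7% higher and 21.4% lower. The balance between directions depends on scaling. In the main analysis 54.5% of the called genes were higher and the median log2 change was 0.02. Scaled by library size alone, 1848 were higher and 6113 lower (23.2% higher), and the median shifted by -0.47. All log2 changes below are relative to the main scaling, so changes under about 0.5 in size are the ones this choice can turn.

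Most of the called genes were already called in the same direction from fetus to weaning. Of the 3686 higher genes, 1968 were called higher from fetus to weaning only, 581 from weaning to adulthood only, 338 at both steps and 799 at neither. Of the 3074 lower genes, these numbers were 1769, 338, 158 and 809. A step that was not called is not shown to be without change. Both steps rest on the weaned libraries, the most spread of these groups (27.5%), and this split was made in the main analysis alone.

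**Figure D1:**
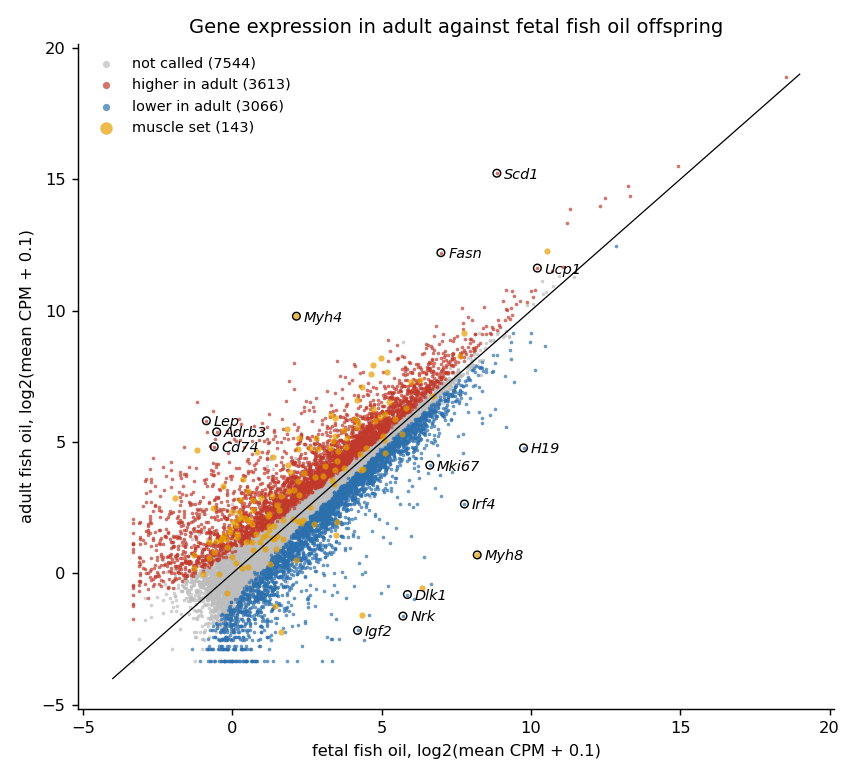
Mean expression of each tested gene in the 3 adult (vertical) against the 3 fetal fish oil libraries (horizontal), as log2(mean CPM + 0.1). Red and blue points are genes called higher (3613) and lower (3066) outside the muscle set, yellow points are the 143 genes of the muscle set, grey points were not called, and the line marks equal levels. Scd1 and Fasn lie far above the line, and Igf2, Nrk, Dlk1 and Myh8 far below it.

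Gene lists of brown fat functions and of cell types are described below by how many of their tested members were called and by their median log2 change, which was 0.02 over all genes tested. Members of these lists were not drawn independently of earlier results on these data. In bulk tissue, fewer cells of a type and less RNA per cell cannot be told apart.

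**Figure D2:**
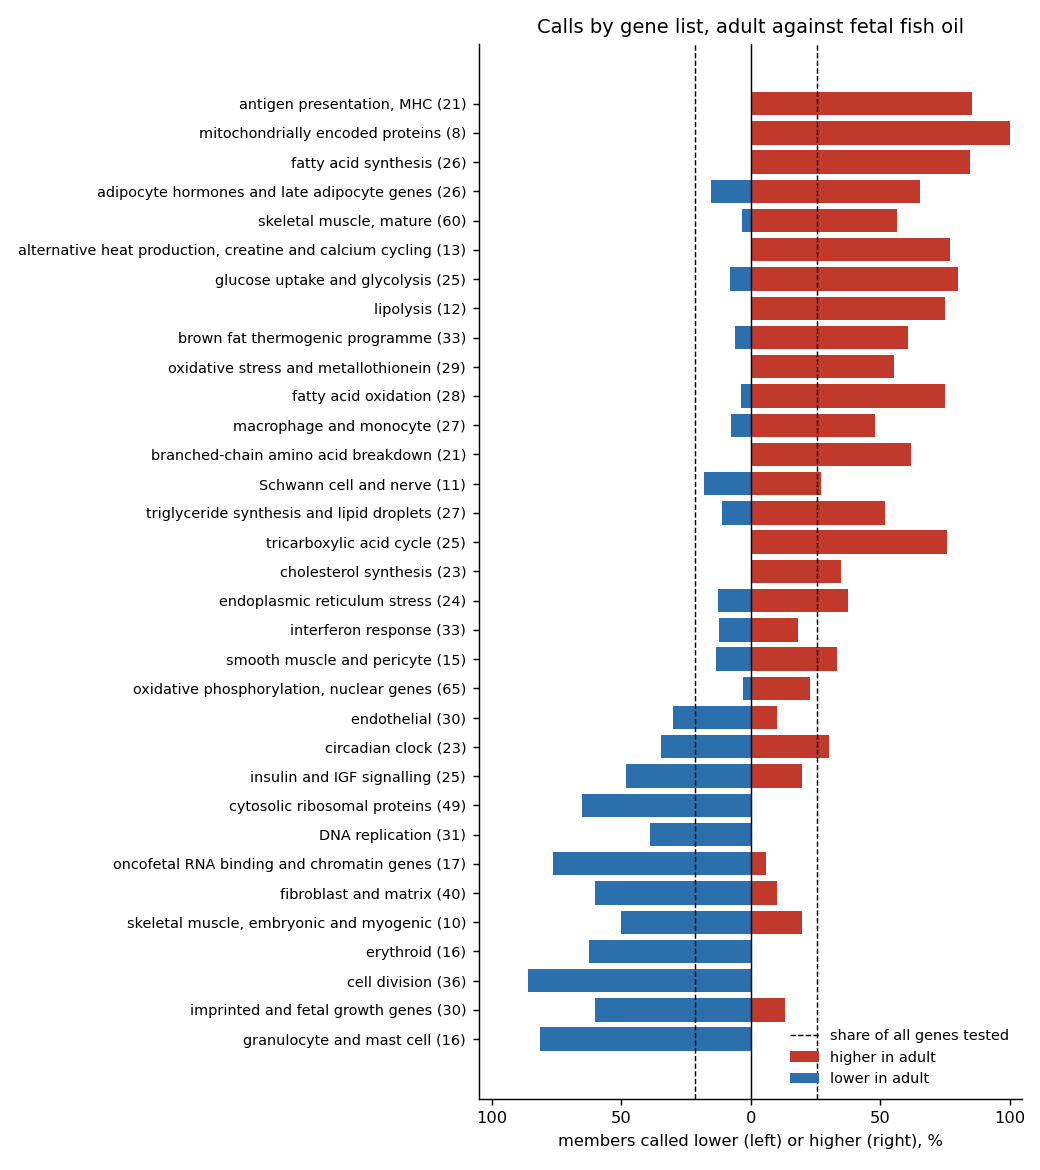
Share of the tested members of each list (number in brackets) called higher (red, right) or lower (blue, left) in adult than in fetal fish oil libraries, ordered by median log2 change. Dashed lines mark the shares over all genes tested (25.7% and 21.4%). All 33 lists with 5 or more tested members are shown. Antigen presentation and fatty acid synthesis genes extend far to the right, cell division and granulocyte genes far to the left.

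Many genes of the thermogenic programme rose, but not all of its defining genes. Of 33 tested members, 20 were higher and 2 lower, with a median log2 change of 0.87 (14, 6 and 0.40 by library size alone). Ucp1, the uncoupling protein itself, was at 1368, 1261 and 943 CPM in the fetal and 2729, 3509 and 3210 CPM in the adult libraries. Every adult library lay above every fetal one, and the rise was 1.40 ± 0.229 (log2 fold change ± SE, adjusted p = 0.000109). Adrb3, the beta-adrenergic receptor of fat cells, was at 0.434, 0.521 and 0.838 CPM before birth and at 41.1, 42.7 and 41.5 CPM in adults. Its weaned levels of 4.89, 7.93 and 5.36 CPM lay between both, and the net log2 change was 6.17 ± 0.424 (adjusted p = 1.2e-08). Elovl3, which extends fatty acids and marks cold-activated brown fat, was at 1.11, 0.521 and 0.152 CPM in fetal and 8.29, 30.5 and 14.2 CPM in adult libraries. The adult values were spread over a wide range but none reached down to the fetal ones (4.74 ± 0.957, adjusted p = 0.000731). Prdm16, the regulator that sets brown over muscle fate, rose from 14.5 ± 2.97 to 32.9 ± 7.66 CPM (mean ± SD, n = 3 each; 1.18 ± 0.224, adjusted p = 0.000433). Ucp3, a related mitochondrial carrier, and Otop1, a proton channel, rose by 3.62 ± 0.260 and 2.99 ± 0.231 (adjusted p = 2.04e-08 and 4.21e-08).

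Several genes at the core of the same programme did not pass the test. Cidea, a lipid droplet protein often used to mark brown fat, was at 615, 578 and 637 CPM in fetal and 417, 579 and 537 CPM in adult libraries. The groups overlapped and the change was -0.26 ± 0.187 (adjusted p = 0.276). Cidea was called lower in 1 of 18 alternatives, scaling by library size alone. Ppargc1a, the coactivator that drives mitochondrial genes, was at 150, 114 and 101 CPM and then 111, 104 and 201 CPM (0.19 ± 0.253, adjusted p = 0.571). Dio2, which makes active thyroid hormone inside the cell, was at 123, 82.4 and 66.5 CPM and then 58.0, 64.4 and 146 CPM (-0.02 ± 0.653, adjusted p = 0.982). In both genes adult library 3 was the highest of all 6 libraries. Both called members that fell are transcription factors. Irf4 was at 233, 200 and 225 CPM in the fetal and 7.62, 4.77 and 6.06 CPM in the adult libraries. It fell by 5.14 on the log2 scale (SE 0.543, adjusted p = 1.22e-06) and was already at 26.4, 8.16 and 11.7 CPM at weaning. Lhx8, a marker of the depot, fell from 6.03 ± 1.13 to 0.466 ± 0.247 CPM (-3.72 ± 0.501, adjusted p = 1.7e-05).

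Heat can also be made by cycling creatine or calcium. Of 13 tested genes for these routes, 10 were higher and none lower (median 1.38), and 6 and 1 by library size alone (median 0.92). Ryr2, a calcium release channel, was at 0.772, 1.15 and 0.991 CPM in fetal and 51.4, 37.8 and 38.9 CPM in adult libraries (5.46 ± 0.525, adjusted p = 4.65e-07). Its correlation with the mature muscle list over the 18 libraries was -0.07, beside 0.99 for Ryr1, the muscle channel, chosen for this contrast. Atp2a2, a calcium pump, rose by 1.08 ± 0.124 and Slc25a4, which exchanges ADP for ATP, by 0.92 ± 0.124 (adjusted p = 2.87e-06 and 1.71e-05).

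**Figure D3:**
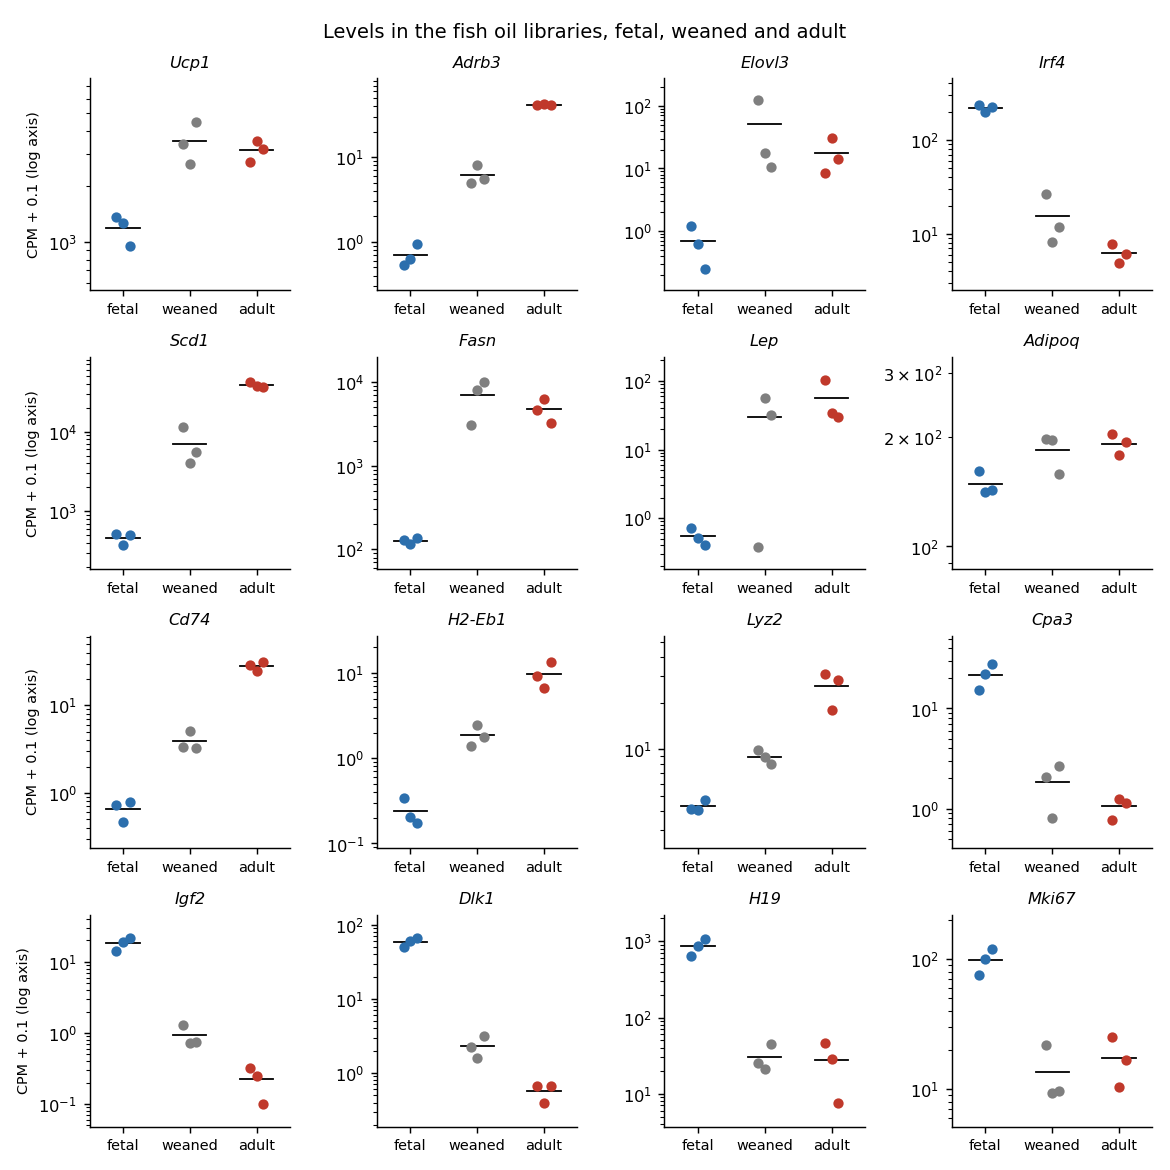
Levels of 16 genes in each fetal (blue), weaned (grey) and adult (red) fish oil library, as CPM + 0.1 on a log axis that differs between panels. Points are libraries 1 to 3 from left to right and lines are group means. Ucp1, Scd1 and Cd74 are higher and Irf4, Dlk1 and Mki67 lower in every adult than in every fetal library, and Lep is near its fetal level in weaned library 1.

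Genes that make fatty acids rose together. Of 26 tested, 22 were higher and none lower (median 1.52). Scd1, the desaturase that turns saturated into monounsaturated fatty acids, was at 517, 379 and 499 CPM in the fetal libraries. In the adult libraries it was at 42360, 37070 and 36060 CPM. The groups are separated by a wide gap, with a log2 change of 6.37 ± 0.417 (adjusted p = 7.07e-09). Fasn, the fatty acid synthase, was at 128, 116 and 137 CPM in fetal and 4609, 6329 and 3260 CPM in adult libraries (5.22 ± 0.349, adjusted p = 8.76e-09). Aacs, which activates ketone bodies for lipid synthesis, rose by 2.57 ± 0.260 (adjusted p = 7.91e-07). It passed through a peak at weaning, at 76.5, 182 and 190 CPM against 31.3, 43.2 and 38.9 CPM in adults.

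Of 27 triglyceride and lipid droplet genes, 14 were higher and 3 lower (median 0.54). By library size alone 10 were higher and 5 lower, with a median of 0.07. Fabp3, a fatty acid carrier, was at 3.28, 3.65 and 5.41 CPM in fetal and 226, 291 and 249 CPM in adult libraries (5.98 ± 0.403, adjusted p = 9.61e-09). Agpat2, an enzyme of triglyceride synthesis, and Plin1, the coat protein of the fat cell's lipid droplet, rose by 3.91 ± 0.310 and 1.89 ± 0.142 (adjusted p = 5.34e-08 and 3.26e-08). The members that fell were Gpihbp1, which carries lipoprotein lipase across capillaries (-0.96 ± 0.133), Lpin1, a phosphatidate phosphatase (-0.81 ± 0.218), and Dgat1, which adds the last fatty acid (-0.38 ± 0.128). Their adjusted p-values were 2.14e-05, 0.00597 and 0.0234. Dgat1 lost its call in 4 of 18 alternatives. Of 12 lipolysis genes, 9 were higher and none lower (median 1.16), and 6 and none by library size alone (median 0.69). Mgll, which splits off the last fatty acid, was at 49.5, 41.2 and 36.7 CPM and then 170, 181 and 171 CPM (2.03 ± 0.112, adjusted p = 8.38e-10). The esterase Ces1d rose by 1.92 ± 0.144 and G0s2, an inhibitor of the first lipase step, by 3.69 ± 0.517 (adjusted p = 2.92e-08 and 2.52e-05). An inhibitor and enzymes of the same pathway thus rose together.

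The counts for pathways that burn fuel depend on scaling. Fatty acid oxidation genes were higher in 21 of 28 cases and lower in 1 (median 0.70), and by library size alone 10 were higher and 5 lower (median 0.23). Cpt2, which completes entry of long fatty acids into mitochondria, was at 102, 91.5 and 85.8 CPM in fetal and 395, 429 and 417 CPM in adult libraries (2.15 ± 0.102, adjusted p = 2.04e-10). Hsd17b4 and Hadhb, enzymes of the peroxisomal and mitochondrial cycles, rose by 1.33 ± 0.123 and 1.23 ± 0.113. The isomerase Eci1 fell by 0.44 (SE 0.111, adjusted p = 0.00378). Tricarboxylic acid cycle genes were higher in 19 of 25 cases and lower in none (median 0.49), against 7 and 2 (median 0.02) by library size alone. Ogdh, a dehydrogenase of the cycle, was at 353, 335 and 341 CPM and then 1090, 1133 and 1178 CPM (1.72 ± 0.0960, adjusted p = 9.34e-10). Pdha1 of pyruvate dehydrogenase rose by 1.32 ± 0.152 and Idh3g by 0.98 ± 0.0961. Breakdown of branched-chain amino acids gave 13 of 21 higher and none lower (median 0.62), and 9 and 2 by library size alone (median 0.14). The lowest adjusted p-values were those of Pcca at 1.66 ± 0.135, Mut at 1.24 ± 0.146 and Bckdk, an inhibitory kinase of the pathway, at 1.16 ± 0.140.

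All 8 tested protein genes of mitochondrial DNA were higher (median 1.73), while of 65 nuclear genes of oxidative phosphorylation 15 were higher and 2 lower (median 0.08). The nuclear share called higher, 23.1%, was near the 25.7% over all genes tested, and 3.08% were lower against 21.4%. mt-Nd2 was at 2859, 2439 and 2381 CPM in fetal and 13440, 16560 and 15220 CPM in adult libraries. The groups lie far apart (2.56 ± 0.126, adjusted p = 3.22e-10). The subunit genes mt-Nd4 and mt-Nd1 rose by 2.14 ± 0.128 and 1.80 ± 0.125. Ndufs1, a nuclear subunit of the same complex, rose by less (0.92 ± 0.110, adjusted p = 5.16e-06), as did Uqcrc2 (0.81, adjusted p = 4.38e-05) and Ndufv1 (0.71 ± 0.112). Ndufc2 fell by 0.52 (SE 0.0906, adjusted p = 0.000184). Atp5g2 was also called lower (adjusted p = 0.0415), from 40 counts over the fetal to 3 over the adult libraries, a ratio of 6.18 with an exact 95% counting interval of 1.97 to 31.2. Its call was lost in 7 of 14 alternatives, among them leaving out any 1 adult library. The direction of the nuclear list depends on scaling: by library size alone 2 were higher and 36 lower, with a median of -0.39, while the mitochondrial genes kept 7 of 8 higher and a median of 1.26. The difference between the 2 lists was not tested.

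Of 25 tested genes for glucose uptake and glycolysis, 20 were higher and 2 lower (median 1.16), and 12 and 4 by library size alone (median 0.69). Gys2, a glycogen synthase isoform, was at 0.386, 0.781 and 0.533 CPM in fetal and 28.1, 54.3 and 22.4 CPM in adult libraries (5.92 ± 0.484, adjusted p = 7.2e-08). Pygl, which breaks glycogen down, was at 20.1, 18.2 and 23.7 CPM and then 171, 262 and 170 CPM (3.28 ± 0.346, adjusted p = 1.17e-06). Both sides of glycogen turnover therefore stood higher in every adult library. Pfkfb3, which makes the signal that speeds glycolysis, rose by 2.31 ± 0.242 (adjusted p = 1.13e-06), whereas its relative Pfkfb1 fell by 0.92 (SE 0.241, adjusted p = 0.00521). The transporter Slc2a3 fell by 1.19 (SE 0.419, adjusted p = 0.0272), a call lost in 6 of 18 alternatives, among them limma-voom. Cholesterol synthesis moved less, with 8 of 23 higher and none lower (median 0.39, and -0.08 by library size alone). Hmgcs1, at the entry of the pathway, rose by 1.83 ± 0.185, Sc5d near its end by 3.47 ± 0.357, and Srebf2, the regulator of the pathway, by 0.93 ± 0.130 (adjusted p = 7.7e-07, 9.16e-07 and 2.28e-05).

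Of 26 tested genes of adipocyte hormones and late adipocytes, 17 were higher and 4 lower (median 1.49). Lep, the satiety hormone made in proportion to fat stores, was at 0.627, 0.417 and 0.305 CPM in fetal and 104, 34.2 and 29.6 CPM in adult libraries (6.88 ± 1.21, adjusted p = 0.000217). At weaning it was at 0.284, 56.4 and 31.9 CPM, so weaned library 1 lay just below the fetal range and the others within the adult one. The call for Lep was lost with limma-voom. Adipoq, the adiponectin gene, was at 162, 141 and 143 CPM and then 203, 178 and 194 CPM. Its groups did not overlap, yet the change of 0.37 ± 0.205 did not pass (adjusted p = 0.151). Adipoq was called higher in 1 of 18 alternatives, the edgeR fit of the 6 compared libraries alone (0.35, adjusted p = 0.00715). Hp, the haemoglobin scavenger haptoglobin, rose from 4.07 ± 0.536 to 131 ± 7.64 CPM (5.02 ± 0.403, adjusted p = 6.02e-08), and the transcription factor gene Cebpb rose by 1.67 ± 0.151. Mest, tied to fat cell growth, fell by 3.79 (SE 0.374, adjusted p = 6.03e-07). Cfd, the complement factor adipsin, was at 79.3, 68.8 and 77.6 CPM before birth and 9.3, 17.9 and 17.2 CPM in adults (-2.35 ± 0.358, adjusted p = 5.59e-05). Car3, a carbonic anhydrase of fat cells, fell by 1.82 (SE 0.518, adjusted p = 0.0086).

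Antigen presentation genes rose. Of 21 tested genes of the major histocompatibility complex (MHC) and its loading machinery, 18 were higher and none lower (median 1.82). Cd74, the chain that guards class II molecules, was at 0.627, 0.365 and 0.686 CPM in fetal and 29.0, 24.4 and 31.1 CPM in adult libraries (5.66 ± 0.308, adjusted p = 7.67e-10). The weaned libraries, at 3.26, 5.02 and 3.12 CPM, lay between these groups. The class II chain genes H2-Ab1 and H2-Eb1 rose by 5.87 ± 0.535 and 5.93 ± 0.459 (adjusted p = 2.57e-07 and 4.21e-08). H2-Aa, another class II chain gene, had 3 counts over the fetal and 251 over the adult libraries. The ratio was 180 with an exact 95% counting interval of 61.1 to 881 (edgeR adjusted p = 9.36e-08). Ciita, the master switch of class II genes, chosen like B2m after its values were seen, had 1 and 60 counts, a ratio of 129 (22.4 to 5200). B2m, the light chain of class I molecules, was at 37.4, 30.7 and 31.5 CPM and then 222, 210 and 173 CPM (2.60 ± 0.267, adjusted p = 9.16e-07). H2-Q10, a secreted class I relative, rose by 6.48 ± 0.507, although reads from the near-identical H2-Q genes may be split or shared in counting.

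Promoter sequence was not used in the comparison. Class II promoters carry a Y box, an inverted CCAAT box read as CTGATTGG and bound by the factor NF-Y. RefSeq promoters (mouse build GRCm38.p6) were matched for 16 of the 21 tested members. Within the 250 bases before the start, ATTGG or its other strand CCAAT lay in 12 of the 16 (75.0%), against 36.6% of the 10190 promoters of tested genes that were matched and 34.5% of all 27025. The longer CTGATTGG (or CCAATCAG), which contains the shorter one, lay in 7 of 16 (43.8%) against 5.57% and 4.07%. A match is a description and not a bound site. The 250 bases of a pair of class II promoters and of the class I light chain promoter show where the box lies. Capitals mark ATTGG or CCAAT. In H2-Aa (chr17:34287824-34288073, minus strand) it begins 48 bases before the start, in H2-Eb1 (chr17:34305617-34305866, plus strand) 59 and 35 bases before it, and in B2m (chr2:122147437-122147686, plus strand) 53 bases before it.
H2-Aa: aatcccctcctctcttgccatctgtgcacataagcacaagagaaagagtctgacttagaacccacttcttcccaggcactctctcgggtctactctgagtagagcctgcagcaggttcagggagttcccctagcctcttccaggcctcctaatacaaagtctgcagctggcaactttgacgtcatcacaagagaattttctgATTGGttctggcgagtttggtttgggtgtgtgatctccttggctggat
H2-Eb1: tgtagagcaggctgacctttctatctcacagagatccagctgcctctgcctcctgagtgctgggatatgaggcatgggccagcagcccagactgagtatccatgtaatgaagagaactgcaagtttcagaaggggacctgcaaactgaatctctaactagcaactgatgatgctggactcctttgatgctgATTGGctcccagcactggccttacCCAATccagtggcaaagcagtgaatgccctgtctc
B2m: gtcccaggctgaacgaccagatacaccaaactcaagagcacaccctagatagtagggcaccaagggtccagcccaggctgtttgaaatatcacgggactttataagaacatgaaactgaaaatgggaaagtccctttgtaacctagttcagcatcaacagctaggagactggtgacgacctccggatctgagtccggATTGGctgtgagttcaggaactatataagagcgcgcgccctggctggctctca

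Other immune cell genes moved both ways. Of 27 macrophage and monocyte genes, 13 were higher and 2 lower (median 0.68), and 8 and 2 by library size alone (median 0.22). Lyz2, a lysozyme of myeloid cells, was at 4.00, 3.96 and 4.57 CPM in fetal and 30.6, 18.1 and 28.1 CPM in adult libraries (2.62 ± 0.229, adjusted p = 1.64e-07). Mpeg1, a pore protein of macrophages, and Ccr2, a receptor of recruited monocytes, rose by 2.51 ± 0.268 and 2.62 ± 0.345. Lyve1 and Mrc1, found on macrophages resident in tissue, fell by 1.49 and 0.61 (SE 0.443 and 0.190, adjusted p = 0.0111 and 0.0146). These calls were lost in 1 of 18 alternatives for Lyve1 and in 4 for Mrc1. Cd209f, another macrophage gene of the list chosen after its values were seen, was called higher. It had 1 count over the fetal and 18 over the adult libraries, a ratio of 38.8 (exact 95% counting interval 6.13 to 1620). Mrc1 had a trough at weaning, at 23.4, 16.9 and 21.3 CPM. Ighm, the heavy chain of B cells, was at 1.11, 0.886 and 0.762 CPM and then 11.8, 9.96 and 2.86 CPM (3.12 ± 0.418, adjusted p = 1.6e-05), and was the called member among 3 lymphocyte genes tested. Interferon response genes gave 6 higher and 4 lower of 33 (median 0.14, and -0.32 by library size alone). Both shares, 18.2% and 12.1%, lay below the 25.7% and 21.4% over all genes tested. Ifi27l2a rose by 4.49 ± 0.412, Ifi27 by 1.74 ± 0.195 and Gbp5 by 1.74 ± 0.303. Xaf1, Rtp4 and Rsad2 fell by 0.93, 0.93 and 0.61.

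Granulocyte and mast cell genes fell to near the detection floor. Of 16 tested, 13 were lower and none higher, with a median of -4.60 (-4.22 with members at 0 counts set to 3 counts over that group). Cpa3, a mast cell protease, was at 15.1, 22.3 and 27.5 CPM in fetal and 0.672, 1.16 and 1.03 CPM in adult libraries (-4.51 ± 0.351, adjusted p = 4.52e-08). Cma1, a chymase, fell by 4.40 (SE 0.410, adjusted p = 3.29e-07). S100a9, a protein of neutrophils, had 535 counts over the fetal and 2 over the adult libraries, a ratio of 124 (exact 95% counting interval 34.2 to 1030). Ltf, of neutrophil granules and chosen after its values were seen, had 138 and 0 counts, at least 21.3-fold lower. Erythroid genes were lower in 10 of 16 cases and higher in none (median -1.28). Tfrc, which takes up iron, was at 412, 585 and 709 CPM and then 57.0, 32.2 and 52.7 CPM (-3.58 ± 0.582, adjusted p = 0.000104). Slc4a1, the red cell anion exchanger, fell by 3.74 (SE 0.620, adjusted p = 0.000127), and the globin gene Hba-a1, whose reads cannot be kept apart from those of Hba-a2, gave -1.54 ± 0.254.

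Endothelial genes gave 3 higher and 9 lower of 30 (median -0.18), and 1 and 18 by library size alone (median -0.63). Rgcc rose by 1.39 ± 0.144, Flt1, a receptor for vascular growth factors, by 0.74 ± 0.148 and Vwf, a clotting protein, by 0.94 ± 0.289. The calls for Flt1 and Vwf were lost by library size alone, with log2 changes of 0.28 and 0.47. Aplnr, the apelin receptor, was at 13.0, 12.2 and 14.5 CPM and then 5.04, 1.44 and 4.46 CPM (-1.82 ± 0.309, adjusted p = 0.000153), and Plvap, of fenestrated capillaries, fell by 1.17. Smooth muscle and pericyte genes gave 5 higher and 2 lower of 15 (33.3% and 13.3%, against 25.7% and 21.4% over all genes tested). Rgs5, a pericyte marker, was at 39.0, 34.5 and 38.7 CPM in fetal and 286, 235 and 285 CPM in adult libraries, a gap far wider than the spread in either group (2.84 ± 0.130, adjusted p = 1.74e-10). Synpo2 and Cspg4 rose by 2.06 ± 0.298 and 2.12 ± 0.432, and Smtn and Notch3 fell by 0.75 and 0.68. Among 11 Schwann cell and nerve genes 3 were higher and 2 lower (27.3% and 18.2%), near the shares over all genes tested. Mbp, of myelin, rose by 1.94 ± 0.249 and S100b by 2.86 ± 0.438, while Ncam1 fell by 2.16 (SE 0.356). Gap43, of growing axons, had 48 counts over the fetal and 0 over the adult libraries, at least 7.42-fold lower. Epidermis and cartilage lists had 2 and 4 tested members, of which 0 and 3 were called (Sox9 higher, Col11a1 and Col11a2 lower). Col11a2 lost its call in 6 of 18 alternatives.

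Most cell division genes fell. Of 36 tested, 31 were lower, 5 not called and none higher (median -1.99), and of 31 DNA replication genes 12 were lower and none higher (median -0.79). Mki67, a nuclear protein of dividing cells, was at 74.7, 100 and 119 CPM in fetal and 25.1, 10.3 and 16.6 CPM in adult libraries. No adult library reached the lowest fetal one (-2.49 ± 0.308, adjusted p = 6.85e-06). The mitotic genes Knl1 and Nusap1 fell by 2.51 and 2.13 (SE 0.339 and 0.288, adjusted p = 1.76e-05 and 1.78e-05). Mcm7, part of the helicase that opens DNA for copying, was at 11.5, 10.7 and 11.6 CPM and then 3.92, 3.75 and 4.23 CPM (-1.50 ± 0.195, adjusted p = 1.17e-05). Chaf1a, a histone chaperone at the fork, gave -1.54 ± 0.252, and Cdt1, which licenses origins, fell from 68 to 2 counts, a ratio of 15.8 (4.2 to 133).

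Promoters of cell division genes often carry several CCAAT boxes next to a TTTGAA element that holds a gene off in resting cells. Promoters were matched for 30 of the 36 members. ATTGG or CCAAT lay in 21 of the 30 (70.0%, against 36.6% of promoters of tested genes) and TTTGAA or TTCAAA in 9 (30.0%, against 10.6% of these and 16.3% of all promoters). In the MHC list TTTGAA lay in 1 of 16 (6.25%). CTGATTGG lay in 7 of the 30 (23.3%). The promoters of Mki67, Top2a and Cdk1 are shown as the counterpart of the MHC promoters, with ATTGG and CCAAT again in capitals. Top2a and Cdk1 were chosen after their values were seen. Top2a, the topoisomerase that untangles chromosomes, fell by 1.84 (SE 0.332, adjusted p = 0.000279), and Cdk1 encodes the kinase that starts mitosis. Mki67 (chr7:135716380-135716629, minus strand) has 3 boxes, the nearest beginning 141 bases before the start. Top2a (chr11:99024190-99024439, minus strand) has 6 boxes, from 227 to 58 bases before the start. Cdk1 (chr10:69352913-69353162, minus strand) has 3 boxes, at 208, 80 and 48 bases.
Mki67: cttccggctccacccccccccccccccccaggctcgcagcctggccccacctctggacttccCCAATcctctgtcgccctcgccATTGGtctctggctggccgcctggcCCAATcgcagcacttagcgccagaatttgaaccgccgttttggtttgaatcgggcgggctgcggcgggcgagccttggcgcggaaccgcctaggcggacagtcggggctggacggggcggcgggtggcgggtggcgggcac
Top2a: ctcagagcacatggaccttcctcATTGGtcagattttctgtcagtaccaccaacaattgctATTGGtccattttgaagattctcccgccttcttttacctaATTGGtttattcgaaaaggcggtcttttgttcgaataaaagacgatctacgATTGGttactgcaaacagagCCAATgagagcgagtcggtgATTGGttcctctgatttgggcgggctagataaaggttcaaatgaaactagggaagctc
Cdk1: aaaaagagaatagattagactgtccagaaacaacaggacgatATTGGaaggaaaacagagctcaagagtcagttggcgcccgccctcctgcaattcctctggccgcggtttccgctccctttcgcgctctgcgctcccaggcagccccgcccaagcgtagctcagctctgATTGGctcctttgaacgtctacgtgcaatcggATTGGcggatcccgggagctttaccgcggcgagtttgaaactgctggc

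Imprinted and fetal growth genes, many of them read from a single parental copy and active before birth, fell in 18 of 30 cases and rose in 4 (median -2.14). H19, a fetal non-coding RNA, was at 646, 865 and 1081 CPM in fetal and 46.5, 28.0 and 7.43 CPM in adult libraries (-4.98 ± 0.521, adjusted p = 1.1e-06). Dlk1, which keeps precursors from becoming fat cells, was at 49.6, 60.0 and 65.4 CPM and then 0.560, 0.289 and 0.572 CPM (-6.88 ± 0.267, adjusted p = 3.54e-11). Igf2, the fetal growth factor, had 941 counts over the fetal and 3 over the adult libraries, a ratio of 145 (exact 95% counting interval 49.6 to 706). Plagl1, Zdbf2 and Meg3, other imprinted genes, had log2 changes of -5.87, -5.83 and -4.05 (SE 0.329, 0.536 and 0.236). Nnat was called higher at 2.83, but not with unstranded counts (0.49). Impact rose, as did Snrpn and Dcn, the latter pair by 1.76 ± 0.412 and 0.94 ± 0.172 (adjusted p = 0.00234 and 0.000293). Oncofetal RNA-binding and chromatin genes were lower in 13 of 17 cases and higher in 1, Arid3b (median -0.91). Igf2bp3 and Igf2bp1, which bind growth factor messages in the embryo, had 422 and 114 fetal counts and 0 adult counts, at least 65.2-fold and 17.6-fold lower. Ezh2, a histone methyltransferase, fell from 22.7 ± 1.83 to 8.04 ± 1.28 CPM (-1.50 ± 0.169).

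Of 25 insulin and IGF signalling genes, 12 were lower and 5 higher (median -0.53). Igfbp3, a carrier of IGF, was at 72.5 ± 4.91 CPM (mean ± SD, n = 3) in fetal and 5.15, 6.79 and 6.40 CPM in adult libraries (-3.57 ± 0.339, adjusted p = 4.03e-07). Grb10, an imprinted brake on insulin signalling, fell by 2.74 (SE 0.189), while its relative Grb14 rose from 18.3 ± 1.37 to 112 ± 11.8 CPM (2.61 ± 0.530, adjusted p = 0.000757). Ghr, the growth hormone receptor, and Akt2, a kinase of the insulin pathway, rose by 1.87 ± 0.326 and 0.87 ± 0.132. Irs4, an adaptor of the pathway chosen after its values were seen, had 185 fetal and 0 adult counts, at least 28.6-fold lower.

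Matrix and ribosomal genes fell. Of 40 fibroblast and matrix genes, 24 were lower and 4 higher (median -0.98). Fbn2, the fibrillin of fetal elastic fibres, was at 54.8, 66.4 and 81.2 CPM in fetal and 0.448, 0.433 and 0.343 CPM in adult libraries (-7.34 ± 0.463, adjusted p = 4.5e-09). Postn, a matrix protein of growing tissue, was at 283, 290 and 342 CPM and then 75.8, 57.2 and 80.9 CPM (-2.10 ± 0.159). Col6a1 fell by 1.78 (SE 0.173). Pi16 and Dpt, found in fibroblasts of many tissues, rose by 2.56 ± 0.371 and 1.03 ± 0.286 (adjusted p = 3.56e-05 and 0.00738). Dpt lost its call in 4 of 18 alternatives, among them library size alone. Of 49 cytosolic ribosomal protein genes, 32 were lower and none higher (median -0.77), led by Rpl34 at -1.41 ± 0.127, Rpl4 at -0.89 ± 0.0855 and Rpl8 at -1.14 ± 0.122. Reads of ribosomal genes can be shared with their many pseudogenes.

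Clock genes split, with 7 of 23 higher and 8 lower (median -0.19). These are 30.4% and 34.8%, against 25.7% and 21.4% over all genes tested. Per1 was at 51.6, 64.4 and 60.7 CPM in fetal and 11.7, 5.92 and 8.69 CPM in adult libraries (-2.73 ± 0.280, adjusted p = 8.79e-07), and Per2 fell by 1.13 (SE 0.179). The output genes Hlf, Nr1d1 and Dbp rose by 1.74 ± 0.191, 1.66 ± 0.315 and 1.82 ± 0.429. The time of day at sampling is not given in the labels, so its part in these values cannot be told apart from age. Oxidative stress genes were higher in 16 of 29 cases and lower in none (median 0.78), and 12 and 4 by library size alone (median 0.31). Gpx1, which clears peroxides, was at 9.5, 9.64 and 9.68 CPM and then 56.8, 73.8 and 55.1 CPM (2.69 ± 0.216, adjusted p = 6.02e-08), and Gstm1 and G6pdx rose by 2.80 ± 0.186 and 2.88 ± 0.228. Endoplasmic reticulum stress genes gave 9 higher and 3 lower of 24 (median 0.25, and -0.22 by library size alone). The chaperones Canx and Calr and the co-chaperone Dnajc3 rose by 0.60, 0.72 and 0.64, calls that were lost with scaling by library size alone, and Trib3, Pdia6 and Eif2ak3 fell by 1.73, 0.41 and 0.35. The call for Pdia6 was lost in 4 and that for Eif2ak3 in 7 of 18 alternatives, both without fetal library 3 or adult library 1.

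Outside the lists, the genes with the largest called changes included others with fetal or adult roles. Nrk, a kinase gene of the X chromosome, was at 40.2, 51.9 and 65.5 CPM in fetal and 0.560, 0 and 0.114 CPM in adult libraries (-7.70 ± 0.412, adjusted p = 6.86e-10). Tceal7, Atp1b4 and Ptn, a secreted growth factor, fell by 6.56, 5.88 and 4.68. Afp, the fetal albumin, was at 6.61, 19.2 and 7.47 CPM and then 0.448, 0.144 and 0 CPM (-5.71 ± 1.19, adjusted p = 0.000942). Xist gave the log2 change -7.18 ± 1.57 (adjusted p = 0.00134), and the part of sex in it was not tested. Its adjusted p was 0.189 (log2 change -3.22) when fetal library 2, the fetal library with low Xist, stood alone for the fetal group. That alternative and the one with adult library 3 alone for the adult group were added after the data were seen, and lowered the count of called genes from 6760 to 3653 and 3781. Slc25a48, a mitochondrial carrier, was at 0.289, 0.0521 and 0.0762 CPM in fetal and 20.5, 22.5 and 13.8 CPM in adult libraries (6.89 ± 0.770, adjusted p = 2.26e-06). Scn4b, a sodium channel subunit, rose by 5.85 ± 0.823.

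Mup3, Pigr and Serpina3k, genes typical of liver, were also among the largest rises, but rested on adult library 2. Mup3 was at 8.74, 266 and 1.94 CPM in adult libraries 1 to 3, Pigr at 1.68, 47.7 and 0.229 CPM and Serpina3k at 3.14, 81.3 and 0.686 CPM. All 3 calls were lost without that library, with limma-voom and with adult library 3 alone. Without adult library 2 the log2 change of Mup3 went from 7.90 to 3.80 (adjusted p = 0.0699) and that of Serpina3k from 6.79 to 2.92 (adjusted p = 0.202). The mean over 18 liver-type genes, chosen after these values were seen, was 2.53, 6.85 and 0.06 log2 CPM in adult libraries 1 to 3 and 1.09, 2.42 and 1.49 log2 CPM in fetal libraries 1 to 3. Alb, the main serum protein of liver, chosen after its values were seen, was at 72.5, 1264 and 5.03 CPM in the adult libraries. Of the 18, 8 were called higher and none without adult library 2. Over the 18 libraries, 154 tested genes had a correlation of at least 0.8 with that mean, which was highest in adult library 2. Of these 105 were called higher, and 3 of the 105 remained so without adult library 2. Genes picked this way tend to be high in that library, so these counts describe the selection and are no separate support. The part of liver RNA in other rises was not tested.

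The weaned libraries show that some genes turned on the way. Outside the muscle set, 293 genes had a peak at weaning (2.04% of genes tested), being called higher from fetus to weaning, lower from weaning to adulthood, with all weaned libraries above all others. Of these, 199 were not called between fetus and adult, 77 were still higher in adults and 17 lower. A gene not called is not shown to have equal fetal and adult levels. Troughs, the mirror image, numbered 341 (2.37%), of which 96 were in the muscle set and 245 outside it. Of the 245, 183 were not called between fetus and adult, 21 were higher and 41 lower in adults.

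Cyp2b10, a cytochrome P450 gene, was at 0.675, 1.56 and 0.762 CPM in fetal, 145, 67.7 and 110 CPM in weaned and 0.896, 0.722 and 3.89 CPM in adult libraries. Its net change of 0.89 ± 0.557 did not pass (adjusted p = 0.201), but was called with no low-count filter. Prodh, which starts proline breakdown, was at 4.80 ± 0.713 CPM in fetal and 8.02 ± 3.84 CPM in adult libraries, and at 64.0, 70.1 and 75.4 CPM at weaning. Its net rise of 0.72 ± 0.280 (adjusted p = 0.0439) was lost in 13 of 18 alternative analyses. Isyna1, which makes inositol, was at 1.84, 22.2 and 39.8 CPM and Slc7a8, an amino acid transporter, at 202, 45.3 and 6.00 CPM in the weaned libraries. In both genes the weaned libraries were spread widely, in opposite order. The net change of Slc7a8 from fetus to adult, -1.31, did not pass (adjusted p = 0.434). It was called in the fit of the 6 compared libraries alone and with no low-count filter. Tent5c peaked at 64.0, 21.4 and 27.8 CPM, Foxred2 at 0.922, 12.1 and 4.32 CPM and Apol11b at 1.13, 0.549 and 2.64 CPM.

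Blood genes were frequent among the peaks, with 7 of the 16 erythroid genes, as were 6 of the 30 endothelial genes. Hbb-bs, the adult beta globin, was at 13.6, 11.5 and 10.2 CPM in fetal, 95.6, 44.6 and 50.6 CPM in weaned and 11.1, 4.62 and 8.35 CPM in adult libraries, with no net change called (-0.54 ± 0.327, adjusted p = 0.189). Hbb-bt, the other beta globin gene chosen after its values were seen, also peaked, with weaned levels of 17.5, 6.36 and 9.36 CPM. With scaling by library size alone, and with no low-count filter, Hbb-bs was called lower in adults. Reads of Hbb-bs and Hbb-bt cannot be kept apart with certainty. Whether blood left in the tissue differed between ages was not tested.

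The troughs with the largest turn lay near the detection floor. Lrrn1, Slc16a3, Ramp1, Rab15, Zfp57, Aldh3b1, Nhs and Sh3bgr were all at 0.942 CPM or less in every weaned library. Their correlation with the mature muscle list was 0.21 to 0.79, where 0.8 would have put a gene in the muscle set. Sh3bgr, the called member among these 8, was at 2.41, 1.98 and 3.66 CPM in fetal and 9.08, 9.82 and 1.94 CPM in adult libraries (1.38 ± 0.504, adjusted p = 0.0333), and turned to -0.47 with adult library 3 alone. Troughs at levels of at least 10 CPM in fetal and adult groups were looked up after the values were seen. Col12a1, a collagen, was at 76.3, 76.4 and 84.7 CPM, then 20.6, 10.6 and 9.12 CPM and again 56.4, 28.2 and 40.9 CPM. Emp1, a membrane protein, was at 34.2 ± 4.91 CPM in fetal, 6.10, 6.51 and 8.72 CPM in weaned and 18.6 ± 4.18 CPM in adult libraries. Prkag2, a subunit of the fuel sensor AMPK, was at 68.8, 63.5 and 68.8 CPM, then 30.8, 32.8 and 31.0 CPM and then 92.9, 63.7 and 95.8 CPM. Its net change was not called (adjusted p = 0.0793), but was called without adult library 2.

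The counts of turns depend on single libraries. Without weaned library 1 there were 689 peaks and 479 troughs outside the muscle set, without adult library 1 there were 185 and 128, and without weaned library 2 there were 156 troughs. Scaled by library size alone there were 95 peaks and 818 troughs.

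**Figure D4:**
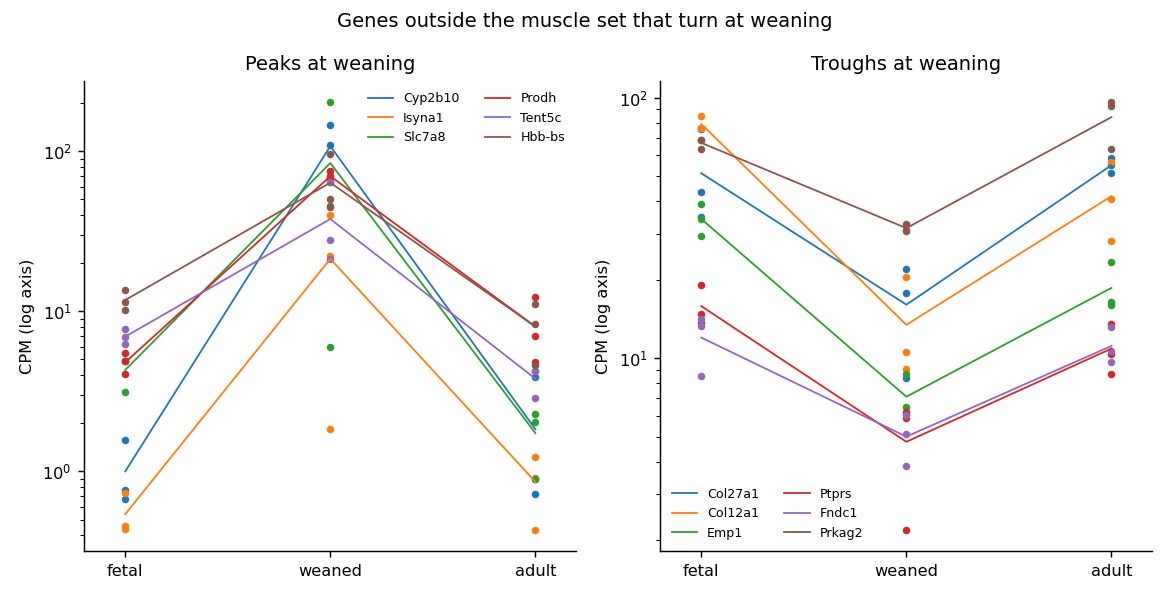
Levels of 6 genes with a peak (left) and 6 with a trough (right) at weaning, in CPM on a log axis. Points are libraries, and lines join the means of the 3 fetal, 3 weaned and 3 adult fish oil libraries. Cyp2b10 and Slc7a8 fall again after weaning, with net log2 changes from fetus to adult of 0.89 and -1.31 that were not called. The weaned libraries of Isyna1 and Slc7a8 are widely spread.

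Offspring of control dams went through a similar change, tested in separate libraries. From fetal to adult control libraries 46.8% of the genes tested were called, 3430 higher (23.9%) and 3297 lower. Genes higher in both comparisons numbered 2800, 76.0% of those higher with fish oil and 81.6% of those higher with control. Genes lower in both numbered 2323, 75.6% and 70.5%, and 39 were called in opposite directions. A test of the difference itself, the fish oil change minus the control change, called 24 genes (0.167%), 22 higher and 2 lower, of which 15 were in the muscle set, and 1010 genes had an unadjusted p under 0.05. DESeq2 called 84 and limma-voom 3. For Ucp1 the control change was 0.59, for Scd1 5.69, for Lep 7.05 and for Dlk1 -6.67, and none of the 4 passed the test of the difference.

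Outside the muscle set 9 genes differed. In 21 alternative analyses, Setd7 and Gm44068 kept this call in all and Hr lost it in 2. Trmt9b lost it in 8, Snx10 and Cnnm2 in 10 each, 2210408F21Rik and Padi2 in 11 each and 5730408A14Rik in 14. Snx10, an endosomal protein gene, rose from 5.20 ± 0.327 to 79.8 ± 9.18 CPM with fish oil and from 15.0 ± 2.68 to 84.4 ± 3.79 CPM with control (n = 3 each). The adult means lay within an SD of each other, the fetal mean was lower with fish oil, and the changes differed by 1.45 ± 0.239 on the log2 scale (edgeR adjusted p = 0.0208). Setd7, a lysine methyltransferase, rose from 24.7 ± 2.85 to 68.5 ± 7.10 CPM with fish oil, and in control was at 45.8 ± 1.23 and 53.6 ± 4.20 CPM. The difference was 1.24 ± 0.169 (adjusted p = 0.00748). Hr, a nuclear corepressor, rose from 0.508 ± 0.151 to 15.3 ± 3.24 CPM with fish oil and from 2.27 ± 0.570 to 11.7 ± 1.65 CPM with control (difference 2.47 ± 0.344). Cnnm2, linked to magnesium transport, was at 12.4 ± 1.37 and 23.5 ± 3.52 CPM with fish oil and at 21.8 ± 1.28 and 21.1 ± 1.14 CPM with control (0.96 ± 0.161). Trmt9b, a tRNA methyltransferase, fell by 1.00 with fish oil and rose by 0.49 with control (-1.49 ± 0.235). Padi2, whose correlation with the muscle list was 0.79, gave 5.13 ± 0.889. The other 3 are the predicted or unnamed genes Gm44068, 2210408F21Rik and 5730408A14Rik. These numbers depend on single libraries: the count was 2 to 4 without any 1 fetal fish oil library, 3, 7 and 104 without adult fish oil libraries 1 to 3, 3 and 7 without fetal control libraries 1 and 3, and 3, 3 and 10 without adult control libraries 1 to 3. It was 186 when only the 12 fetal and adult libraries were fitted.

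Muscle genes are treated apart, because their level differed between libraries of a group. The mature muscle list of 60 genes had means of 2.74, 3.08 and 3.42 log2 CPM in fetal and 5.17, 4.82 and 2.73 log2 CPM in adult libraries. Adult library 3 lay just under the lowest fetal library and the others above the highest. The difference of 1.16 gave a two-sided exact permutation p of 0.4 (3 against 3, smallest possible p 0.1), and ranged from 0.70 to 1.92 when a library was left out. Gene by gene, 34 of the 60 were higher and 2 lower (median 1.39), against 42 and 2 without adult library 3, 20 and 2 without adult library 2, and 4 and 9 with adult library 3 as the sole adult (median -0.47). At weaning the list mean was 0.65, 0.82 and 0.67, and 45 of the 60 genes had a trough there. In control offspring the median change of the list was -2.70, with 1 gene higher and 40 lower, and 10 of the 60 differed between the diets in the test of the difference.

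The members of the mature list with the largest log2 changes were Myh4, Pvalb and Ano5. Myh4, the fastest myosin, was at 4.68, 6.67 and 1.68 CPM in fetal and 1014, 1357 and 285 CPM in adult libraries (7.63 ± 1.20, adjusted p = 7.94e-05). Pvalb, a calcium buffer of fast fibres, was at 0.434, 0.365 and 0.229 CPM and then 34.1, 36.4 and 6.86 CPM (6.14 ± 0.721, adjusted p = 3.95e-06). Even adult library 3, with the least muscle RNA, lay above every fetal library for both genes. Ano5, Scn4a, Mybpc2 and Mylk2 rose by 5.34, 3.80, 3.88 and 3.33. Sln, a regulator of the calcium pump, and Myoz2, of slow fibres, fell by 2.97 and 2.04 (SE 0.638 and 0.618). Myoz2 lost its call in 3 of 17 alternatives, among them DESeq2.

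For embryonic and myogenic muscle genes, the list mean over 10 genes was 2.76, 2.80 and 3.17 log2 CPM in fetal and 1.17, 0.57 and 0.37 log2 CPM in adult libraries. These groups did not overlap (difference -2.21, exact permutation p = 0.1, the smallest possible), and 5 of the 10 were lower and 2 higher. Myh8, the perinatal myosin, was at 202, 311 and 371 CPM in fetal and 2.35, 0.866 and 1.37 CPM in adult libraries (-7.54 ± 0.688, adjusted p = 2.63e-07). Myh3, the embryonic myosin, and Actc1, the actin of fetal and heart muscle, had log2 changes of -7.05 and -6.31 (SE 0.658 and 0.418). Myl4 fell by 1.69 (SE 0.410), and Tnnt2 had 156 fetal and 3 adult counts, a ratio of 24.1 (8.1 to 118). Meox1 rose by 1.71 ± 0.288. Stac3 was called higher at 1.50 ± 0.505 (adjusted p = 0.022) but turned to -0.83 with adult library 3 alone. The wider muscle set, made of the 70 tested genes of both lists and of others that correlate at 0.8 or more with the mature list over the 18 libraries, holds 143 genes, of which 73 were higher, 8 lower and 62 not called.

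**Figure D5:**
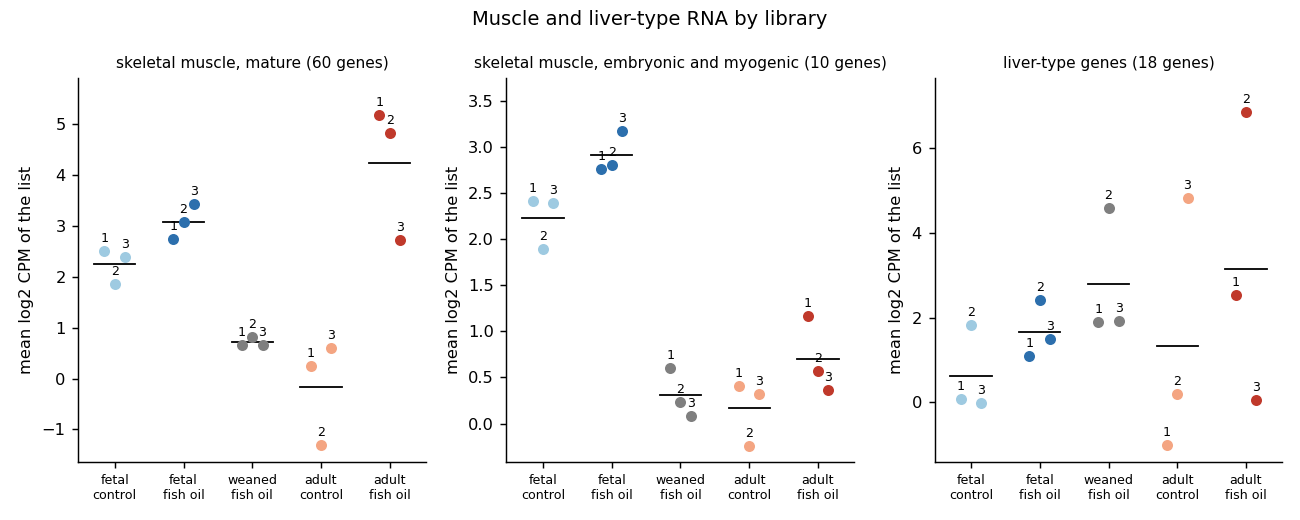
Mean log2 CPM of the mature muscle list (60 genes), the embryonic and myogenic list (10 genes) and 18 liver-type genes in each library of 5 groups. Numbers beside the points are the replicate numbers of the labels and lines are group means. Mature muscle RNA is lowest in adult fish oil library 3 among the adult fish oil libraries (2.73), and liver-type RNA is highest in adult fish oil library 2 (6.85).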

How the data were processed

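Strand-aware read counts per gene, as deposited by the authors, were used as whole numbers (the forward column of each library's table). The submitters' processing notes name Bowtie 0.12.2 and STAR, without their roles. Which gene annotation was used is not stated in those notes. Genes were filtered with filterByExpr, scaled with TMM and tested with edgeR 4.0.16 (quasi-likelihood F-test, all 18 libraries in 6 groups, R 4.3.3), with Benjamini-Hochberg adjustment over all 14366 genes and a threshold of 0.05. A change of more than 2-fold was tested with glmTreat. Printed CPM values use the TMM-adjusted library sizes. DESeq2 1.42.0 and limma 3.58.1 (voom) were alternatives. Low counts were given with exact 95% intervals or against a floor of 3 counts over the group, which cover counting error only.

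The comparison, its members and all gene lists were chosen with earlier results of these data known. The genes named are 14 set genes, the 12 largest changes in each direction, the 3 lowest adjusted p-values per list and direction, 8 peaks and 8 troughs, the called genes of the diet test, and up to 6 muscle genes per list and direction. Other genes are said to be chosen after their values were seen. The muscle set holds the genes of both muscle lists and others whose correlation with the mean of the mature list was at least 0.8. Promoters came from RefSeq (GRCm38.p6). In simulated counts for this comparison, 200 of 14366 genes were changed and all groups were otherwise alike. Of the changed genes passing the filter, 53.2% at a log2 change of 1 and 86.7% at 2 were recovered, with 3 false calls. Far more genes were called in the data (6760), so these rates need not hold for them. Replicate numbers are those of the sample titles, and were not used to pair the libraries in the main analysis. The labels conflict on 1 of them: adult library 2 by its title is numbered 3 in another field.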

Additional observations from a re-analysis of the deposited data

Results flagged for a closer look

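The change from fetus to adult differed between the maternal diets for 24 genes, by a test of the difference itself (the interaction term, fish oil change minus control change, edgeR with Benjamini-Hochberg adjustment). A positive value means that the log2 change with fish oil lay above that with control, which can also come from a fall in the controls. Outside the muscle set the differences were 1.24 for Setd7, 2.47 for Hr, -2.12 for Gm44068, 1.45 for Snx10, 0.96 for Cnnm2, 3.04 for 2210408F21Rik, -1.49 for Trmt9b, 5.13 for Padi2 and 1.84 for 5730408A14Rik. The gene 2210408F21Rik had 3 counts over the fetal fish oil libraries, so its size is uncertain. Of the genes outside the muscle set, only Setd7 and Gm44068 kept the call in all 21 alternatives.

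In the muscle set the differences were 4.68 for Mylk4, 6.26 for Mylk2, 5.46 for Ckmt2, 7.10 for Lmod2, 5.56 for 3425401B19Rik, 5.04 for Ryr1, 4.26 for Pygm, 3.77 for Tpm2, 3.97 for Usp13, 5.83 for Rbm24, 4.57 for Myom2, 5.25 for Mybpc2, 4.92 for Myot, 4.25 for Myo18b and 3.35 for Ldb3. For Lmod2, Rbm24, Usp13, Myo18b and Ldb3 the change with fish oil was not called (0.26, 0.57, 0.92, 0.67 and 0.77), and the controls changed by -6.84, -5.26, -3.05, -3.59 and -2.58. The mean of the mature muscle list was 5.17, 4.82 and 2.73 log2 CPM in the adult fish oil libraries and 0.24, -1.31 and 0.60 log2 CPM in the adult control libraries. Whether this reflects the diet or how much muscle each sample held was not tested.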

How the results depend on the processing

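Of 182 called named genes, 142 kept direction and call under every alternative run for them and 40 lost the call under at least 1. Some named genes not called in the main analysis were called under an alternative, among them Adipoq, Cidea and Slc7a8. The direction turned for Sh3bgr (-0.47) and Stac3 (-0.83), both with adult library 3 alone. Scaling by library size alone gave 1848 higher and 6113 lower genes, 545 and 1285 past 2-fold, and 913 turns at weaning (95 peaks, 818 troughs). With fetal library 2 alone there were 3653 calls (1796 higher, 1857 lower; 675 past 2-fold, 403 and 272). With adult library 3 alone there were 3781 (2115 and 1666; 711 past 2-fold, 480 and 231). Both were added after the data were seen, and a lone library is assumed to vary like the other groups. Leaving out 1 library gave 5611 to 6079 calls, 3045 to 3481 higher, 2535 to 2756 lower, 1100 to 1478 past 2-fold (690 to 1031 higher, 410 to 505 lower), and a mature muscle difference of 0.70 to 1.92. Turns ranged from 313 (without adult library 1) to 1168 (without weaned library 1), peaks from 185 to 689 and troughs from 128 to 479, by the same libraries. The 9 fish oil libraries alone gave 156 troughs. The muscle set held 218 genes at a correlation of 0.7 and 103 at 0.9.

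The diet test moved most: 24 genes became 313 with no filter, 84 with DESeq2, 3 with limma-voom, 186 with 12 libraries, and 2 to 104 without 1 library, the highest without adult fish oil library 3. The causes were not tested. Same-numbered fetal and adult libraries had correlations of deviations of -0.03, 0.19 and -0.02, and libraries of different number had -0.18 to 0.19. With 3 libraries a side these values cannot decide whether a shared number marks a pair. With the replicate number as a block the calls numbered 6614, the turns 488 and the diet test 9. Depth limits genes near the floor of 3 counts, which is higher in the shallower adult libraries.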

Other observations

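Some large changes lay outside the gene lists, and the genes here were chosen after their values were seen. Prelp, a small proteoglycan of connective tissue, was at 18.5, 16.1 and 16.8 CPM before birth and at 257, 245 and 203 CPM in adults, while most listed matrix genes fell (3.78 ± 0.131, adjusted p = 1.18e-11). Chpt1, which makes phosphatidylcholine, was at 220, 193 and 212 CPM and then 999, 1096 and 1171 CPM (2.39 ± 0.109, adjusted p = 1.74e-10). Ntrk2, a neurotrophin receptor, rose by 3.36 ± 0.168 and Cacna1a, a calcium channel subunit, by 4.04 ± 0.342. Sgcd, a sarcoglycan, rose by 3.85 ± 0.183, with a correlation of -0.37 with the mature muscle list over the 18 libraries.

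Among the falls, Vcan, a large proteoglycan of developing matrix, was at 84.7, 106 and 139 CPM and then 9.41, 8.66 and 9.95 CPM (-3.55 ± 0.264, adjusted p = 2.77e-08). Piezo2, a channel that senses touch and stretch, fell by 3.20 (SE 0.228) and Itm2a by 3.70 (SE 0.276). Nampt, which makes a precursor of NAD, was at 313, 331 and 356 CPM and then 121, 114 and 130 CPM (-1.45 ± 0.116, adjusted p = 5.78e-08).

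Weaned library 1 also differed from weaned libraries 2 and 3 outside lipid synthesis. Npas2, a clock gene, was at 11.2, 0.628 and 0.640 CPM, Irs2, an adaptor of the insulin receptor, at 85.4, 5.42 and 12.6 CPM, and Kit, a receptor of stem and mast cells, at 3.97, 75.0 and 40.5 CPM in weaned libraries 1 to 3. The fetal ranges were 7.09 to 13.0 CPM for Npas2 and 83.3 to 99.8 CPM for Irs2, so weaned library 1 lay within the fetal range for both.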
